A study of Mus musculus with 2 samples.

Results

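Semaphorins, plexins and neuropilins are the ligands, receptors and co-receptors of one guidance system, and their transcripts were followed across the cell classes of the embryonic mouse forebrain. Members were chosen by symbol: every semaphorin of classes 3 to 7, every plexin, and the neuropilins Nrp1 and Nrp2. This gave 31 of 32285 annotated genes, namely 20 semaphorins (7 of class 3, 6 of class 4, 2 of class 5, 4 of class 6 and 1 of class 7), 9 plexins (4 of type A, 3 of type B, Plxnc1 and Plxnd1) and 2 neuropilins. The rule uses names and no measured value.

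Semaphorins are secreted or membrane-bound proteins that repel or attract growing axons and migrating cells. Class 3 members are secreted, classes 4 to 6 span the membrane, and Sema7a is held by a lipid anchor. Plexins are the signalling receptors, and most class 3 semaphorins bind a neuropilin that sits beside a type A plexin. In the developing cortex the system is known for the orientation and radial migration of projection neurons, the sorting of interneurons between cortex and striatum, axon guidance across the midline, and vessel patterning.

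The cells came from the dorsal telencephalon, the embryonic region that forms the cerebral cortex, dissociated with papain at embryonic day 16.5. Both libraries used here, WT replicate 1 and WT replicate 6, are wild-type controls from a series on the loss of Dot1l in Emx1-Cre cells. They form a single group, the mutant was not analysed here, and no genotype comparison was made. The tissue label reads brain hemispheres, and subpallial and striatal-type neurons were found among the cells.

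Droplet 3′ libraries (10x Genomics, version 3.1) were counted by the authors as unique molecular identifiers (UMIs), each standing for 1 captured mRNA molecule. The libraries held 14136 and 13046 barcodes with 74930397 and 68964234 UMIs, and 59 barcodes occurred in both (0.417% and 0.452%). Cells were kept if they had 1500 to 60000 UMIs with less than 10% of them mitochondrial, and likely doublets were left out, which gave 7219 and 7352 cells. Of these, 2651 (36.7%) and 2968 (40.4%) passed exactly 1 marker gate, a fixed combination of marker genes present and absent, and the others were not assigned to a class. No member is a gate marker.

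Of 18 gated classes, the 16 with at least 20 cells in each library are described. They ranged from layer 5-type excitatory neurons (27 and 30 cells) to upper-layer-type excitatory neurons (643 and 808 cells), with median depths of 3689 to 13664 UMIs per cell. All markers of Cajal-Retzius, microglial, endothelial, mural, fibroblast and erythroid cells had their highest level in the class they name. Other classes were less distinct: 1 of 7 markers peaked in migrating excitatory neurons, 4 of 9 in intermediate progenitors, 6 of 13 in MGE interneurons, 4 of 7 in layer 6-type neurons and 2 of 6 in layer 5-type neurons. The layer 5-type gate rests on Fezf2 and Bcl11b and cannot separate neocortical layer 5 from other pallial neurons with these markers. RNA of other cells was present too, since the erythroid globin gene Hbb-bs reached 1020 and 6584 CPM in microglia and 3094 and 499 CPM in endothelial cells.

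A level below is the number of UMIs of a gene divided by all UMIs of the class in 1 library, scaled to a common total (CPM), and a pair of levels is always WT replicate 1 and then WT replicate 6. Whether intronic reads were counted is not stated, so levels of different genes are not on 1 scale. Each test compares a gene only with itself between classes. Words such as abundant, scarce or low, and the sum over the family, describe counted UMIs and do not rank genes by their transcripts. Shares of cells with a UMI were taken after each cell was thinned to 2000 UMIs, which left out 89 and 73 cells of the described classes below that depth. Erythroid cells, which should lack most of these transcripts, served as the background for shares. Globin genes took much of their UMIs (Hbb-bs alone 343537 and 358943 CPM). Shares and levels of other genes in erythroid cells are lowered by this, so they can understate the background. Intervals cover counting error only.

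All members but Plxnb3, with 4 UMIs over the described classes, reached at least 20 UMIs. Endothelial cells held the highest level of 4 members, and radial glia, migrating, layer 5-type, layer 6-type and striatal-type neurons of 3 each. For 18 members the highest class did not overlap the class with the next mean level between libraries. The same share was not taken over all genes, so this count says nothing particular about the family. It compares neighbouring means only, and Sema4d is counted although its highest class led in neither library alone. Summed over the family, the level was highest in migrating excitatory neurons (4521 and 4765 CPM), lower in radial glia (1583 and 1367 CPM) and lowest in erythroid cells (389 and 311 CPM). Globin RNA lowers the erythroid sum, and members with many UMIs weigh most in such a sum.

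**Figure D1:**
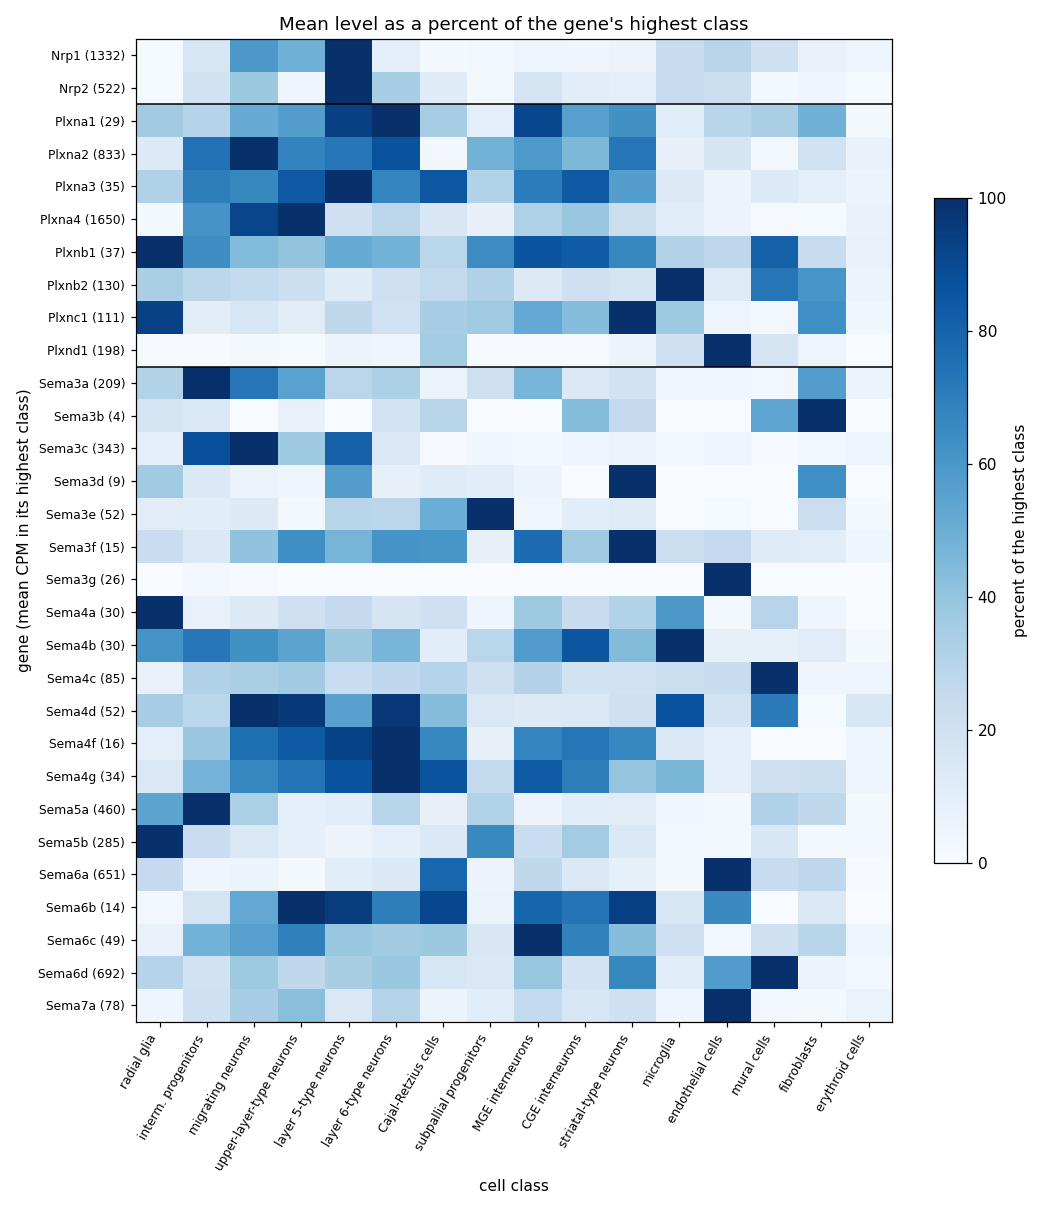
Level of each of 30 members (rows) in 16 cell classes (columns), as a percent of the gene's own highest class. Each label gives the highest mean CPM of 2 libraries, and colours can be compared along a row but not between rows. Plxna4, Plxna2, Nrp1 and Sema3c are dark in excitatory neurons, whereas Sema6a, Plxnd1, Sema3g and Sema7a are darkest in endothelial cells.

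Neuropilins were most abundant in layer 5-type excitatory neurons. Nrp1, the co-receptor for Sema3a and for VEGF, reached 1346 and 1317 CPM there, 777 and 805 CPM in migrating neurons and 629 and 669 CPM in upper-layer-type neurons. Layer 6-type neurons held 91.9 and 172 CPM, and radial glia held the lowest mean level with 19.2 and 13.4 CPM, overlapping Cajal-Retzius cells and subpallial progenitors. Outside the excitatory neurons, Nrp1 was found in endothelial cells (431 and 348 CPM), microglia (223 and 407 CPM) and mural cells (279 and 269.99 CPM). The libraries of the 3 leading classes did not overlap.

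After thinning, 57.4% (95% Wilson interval 53.5 to 61.2%, 357 of 622 cells) and 60.4% (95% Wilson interval 57 to 63.7%, 479 of 793 cells) of upper-layer-type neurons held a Nrp1 UMI. The shares in radial glia, 3.32% (95% Wilson interval 1.69 to 6.41%, 8 of 241 cells) and 1.22% (95% Wilson interval 0.416 to 3.52%, 3 of 246 cells), were no higher than those in erythroid cells, 4.35% (95% Wilson interval 1.49 to 12%, 3 of 69 cells) and 4% (95% Wilson interval 1.57 to 9.84%, 4 of 100 cells). A Nrp1 transcript in radial glia was therefore not distinguishable at this depth from the erythroid background, which globin RNA can make too low. The unthinned shares of the upper-layer-type neurons were 77.9% and 78.5%.

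Nrp2, the co-receptor for Sema3f, showed a narrower pattern. It stood at 556 and 488 CPM in layer 5-type neurons, 189 and 206 CPM in migrating neurons and 136 and 224 CPM in layer 6-type neurons, where the latter pair overlapped. Upper-layer-type neurons, which carried abundant Nrp1, had 29.1 and 21.4 CPM of Nrp2. Among inhibitory cells, MGE interneurons (from the medial ganglionic eminence) held 114 and 68.7 CPM, CGE interneurons (from the caudal eminence) 53.3 and 52.9 CPM and striatal-type neurons 70.7 and 26.1 CPM. The Cajal-Retzius values of 108 and 15.1 CPM were uneven, since 25 of 36 UMIs in WT replicate 1 came from 1 cell.

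Type A plexins, the partners of neuropilins and direct receptors of class 6 semaphorins, had abundant members in Plxna4 and Plxna2. Plxna4 stood at 27.6 and 27.6 CPM in radial glia, 1015 and 999 CPM in intermediate progenitors, 1526 and 1503 CPM in migrating neurons and 1604 and 1695 CPM in upper-layer-type neurons. Layer 6-type (524 and 414 CPM) and layer 5-type neurons (372 and 316 CPM) were lower than all of these except radial glia. Erythroid cells held 78.2 and 152 CPM, above the radial glia, with 19 of 40 and 37 of 113 UMIs in 1 cell of each library.

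The thinned share of upper-layer-type neurons with a Plxna4 UMI was 87.5% (95% Wilson interval 84.6 to 89.8%, 544 of 622 cells) and 90.3% (95% Wilson interval 88 to 92.2%, 716 of 793 cells). In radial glia it was 4.15% (95% Wilson interval 2.27 to 7.47%, 10 of 241 cells) and 5.28% (95% Wilson interval 3.11 to 8.83%, 13 of 246 cells), which is the range of erythroid cells at 5.8% (95% Wilson interval 2.28 to 14%, 4 of 69 cells) and 6% (95% Wilson interval 2.78 to 12.5%, 6 of 100 cells). Unthinned shares in the upper-layer-type neurons were 96.7% and 98.1%.

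Plxna2 was spread more evenly over neurons, from 817 and 849.8 CPM in migrating neurons through 593 and 622 CPM in striatal-type neurons and 555 and 433 CPM in MGE interneurons to 359.5 and 397 CPM in CGE interneurons. Subpallial progenitors carried 443 and 353 CPM and cortical radial glia 104 and 117 CPM. Cajal-Retzius cells, the Reln-expressing neurons of the marginal zone, were the exception among neurons with 24 and 28.1 CPM, close to mural cells with 23.7 and 25.8 CPM. Plxna1 and Plxna3 were scarce. Plxna1 had its highest mean in layer 6-type neurons (24.8 and 33 CPM), which overlapped layer 5-type neurons (20.4 and 33.7 CPM) and MGE interneurons (28.4 and 24.1 CPM) and led in neither library alone. Plxna3 had its highest mean in layer 5-type neurons (35.7 and 33.7 CPM), from 7 and 8 UMIs.

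The remaining plexins marked other compartments. Plxnd1, which binds Sema3e without a neuropilin, was highest in endothelial cells (194 and 202 CPM), next in Cajal-Retzius cells (68.9 and 73.5 CPM), and at most 13.8 CPM in any other neuron class. Plxnc1, the receptor of Sema7a, was highest in striatal-type neurons (121 and 101 CPM) and radial glia (109 and 97.9 CPM), which overlapped, and stood at 10.7 and 12.1 CPM in intermediate progenitors. Plxnb2 was highest in microglia (162 and 97.7 CPM) and mural cells (89.5 and 99.3 CPM), again with overlap. Plxnb1, the receptor of Sema4d, had its highest mean in radial glia (32.8 and 41 CPM), overlapping MGE interneurons (34 and 29.4 CPM), and stood at 23.9 and 23.9 CPM in subpallial and 19.6 and 27.8 CPM in intermediate progenitors.

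**Figure D2:**
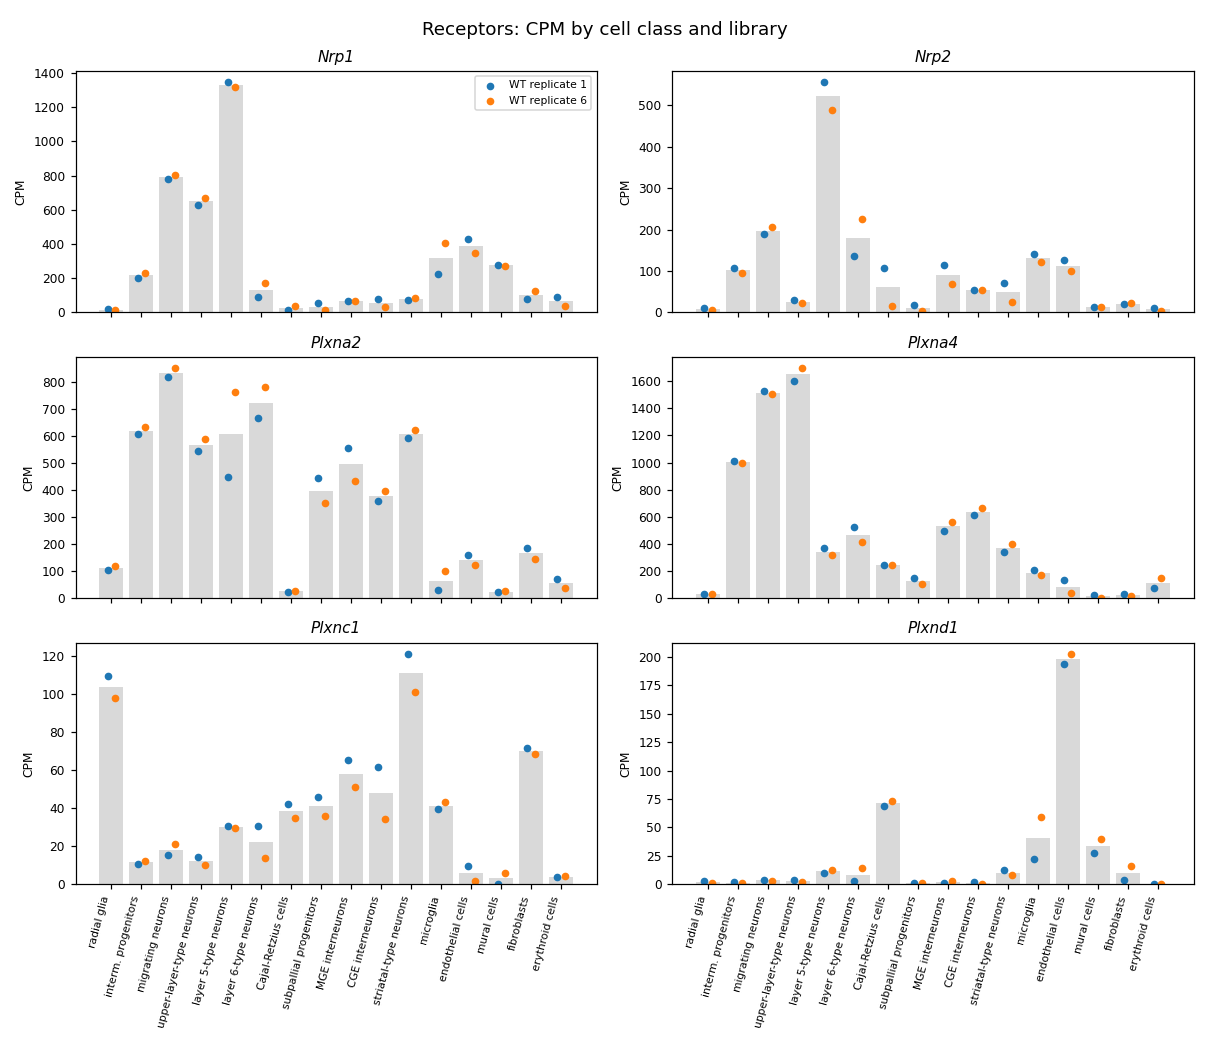
Levels of 6 receptors (CPM, y axis from 0) in 16 cell classes (x axis). Bars are the mean of 2 libraries and points the single libraries. Nrp1 and Nrp2 peak in layer 5-type neurons, Plxna4 in upper-layer-type neurons, and Plxnd1 in endothelial cells with a second, lower bar in Cajal-Retzius cells.

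Among the secreted class 3 semaphorins, Sema3a and Sema3c had their highest levels in the excitatory lineage. Sema3a was not confined to it, and its mean level in MGE interneurons was above those in layer 5-type and layer 6-type neurons. Sema3a, which binds Nrp1, was highest in intermediate progenitors (205 and 214 CPM), followed by migrating neurons (147 and 159 CPM) and fibroblasts (151 and 89.1 CPM). Sema3c stood at 307 and 379.8 CPM in migrating neurons, 302 and 301 CPM in intermediate progenitors and 224 and 333 CPM in layer 5-type neurons, against 8.26 and 8.03 CPM in MGE interneurons. The thinned share of intermediate progenitors with a Sema3c UMI was 38.1% (95% Wilson interval 32.7 to 43.8%, 112 of 294 cells) and 39.3% (95% Wilson interval 34.3 to 44.5%, 137 of 349 cells), and that of erythroid cells 1.45% (95% Wilson interval 0.256 to 7.76%, 1 of 69 cells) and 0% (95% Wilson interval 0 to 3.7%, 0 of 100 cells).

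Sema3e, the ligand of Plxnd1, was highest in subpallial progenitors (32.5 and 72.3 CPM) and Cajal-Retzius cells (18 and 34.6 CPM), with overlapping libraries. Sema3g was nearly restricted to endothelial cells, where 33 of its 39 UMIs were counted (24.1 and 27.6 CPM). Sema3f, the ligand of Nrp2, stayed low and peaked in striatal-type neurons at 14.9 and 15.6 CPM. Sema3d and Sema3b had 65 and 23 UMIs in all described classes.

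Class 4 semaphorins, which signal mostly through type B plexins, were low throughout. Sema4c was highest in mural cells, the contractile cells around vessels, with 76 and 93.3 CPM. Sema4d had its highest mean in migrating neurons (51.5 and 52.3 CPM), with 49.6 and 50.9 CPM in layer 6-type and 46.1 and 53.6 CPM in upper-layer-type neurons. Migrating neurons led in neither library alone, since microglia (61.3 and 29.5 CPM) were higher in WT replicate 1 and upper-layer-type neurons in WT replicate 6. The Sema4a level of 55.1 and 5.17 CPM in radial glia rested on 1 cell, which held 107 of the 126 UMIs of WT replicate 1. Sema4b, Sema4f and Sema4g peaked at mean levels under 40 CPM in microglia (Sema4b) and layer 6-type neurons (Sema4f and Sema4g), each overlapping the next class.

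The class 5 semaphorins, membrane proteins with thrombospondin repeats, had their highest levels in progenitors. Sema5a was highest in intermediate progenitors (489 and 431 CPM) and radial glia (273 and 224 CPM). Sema5b was highest in radial glia (285 and 285 CPM), followed by subpallial progenitors (197 and 177 CPM), and stood at 60.3 and 70.3 CPM in intermediate progenitors. Thinned shares of radial glia with a Sema5b UMI were 39.8% (95% Wilson interval 33.9 to 46.1%, 96 of 241 cells) and 39.8% (95% Wilson interval 33.9 to 46.1%, 98 of 246 cells). In erythroid cells they were 2.9% (95% Wilson interval 0.798 to 9.97%, 2 of 69 cells) and 1% (95% Wilson interval 0.177 to 5.45%, 1 of 100 cells).

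Class 6 semaphorins, transmembrane ligands of type A plexins, had their highest levels in vascular classes (Sema6a and Sema6d) or in neurons (Sema6b and Sema6c). The division was not strict, since a neuron class came second for both Sema6a and Sema6d. Sema6a was highest in endothelial cells (699 and 602 CPM) and Cajal-Retzius cells (467 and 562 CPM), and lowest among neurons in upper-layer-type cells (12.5 and 14.6 CPM). Its thinned shares were 78.2% (95% Wilson interval 65.6 to 87.1%, 43 of 55 cells) and 61.8% (95% Wilson interval 45 to 76.1%, 21 of 34 cells) in endothelial cells. Sema6d was highest in mural cells (671 and 713 CPM), with 395 and 518 CPM in striatal-type neurons and 372 and 423 CPM in endothelial cells. Sema6c peaked in MGE interneurons at 44 and 54.4 CPM and Sema6b had its highest mean in upper-layer-type neurons (14.5 and 13.9 CPM), which overlapped layer 5-type neurons (10.2 and 16.8 CPM) and led in neither library alone. Sema7a was highest in endothelial cells, where the libraries differed (50.8 and 105 CPM).

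**Figure D3:**
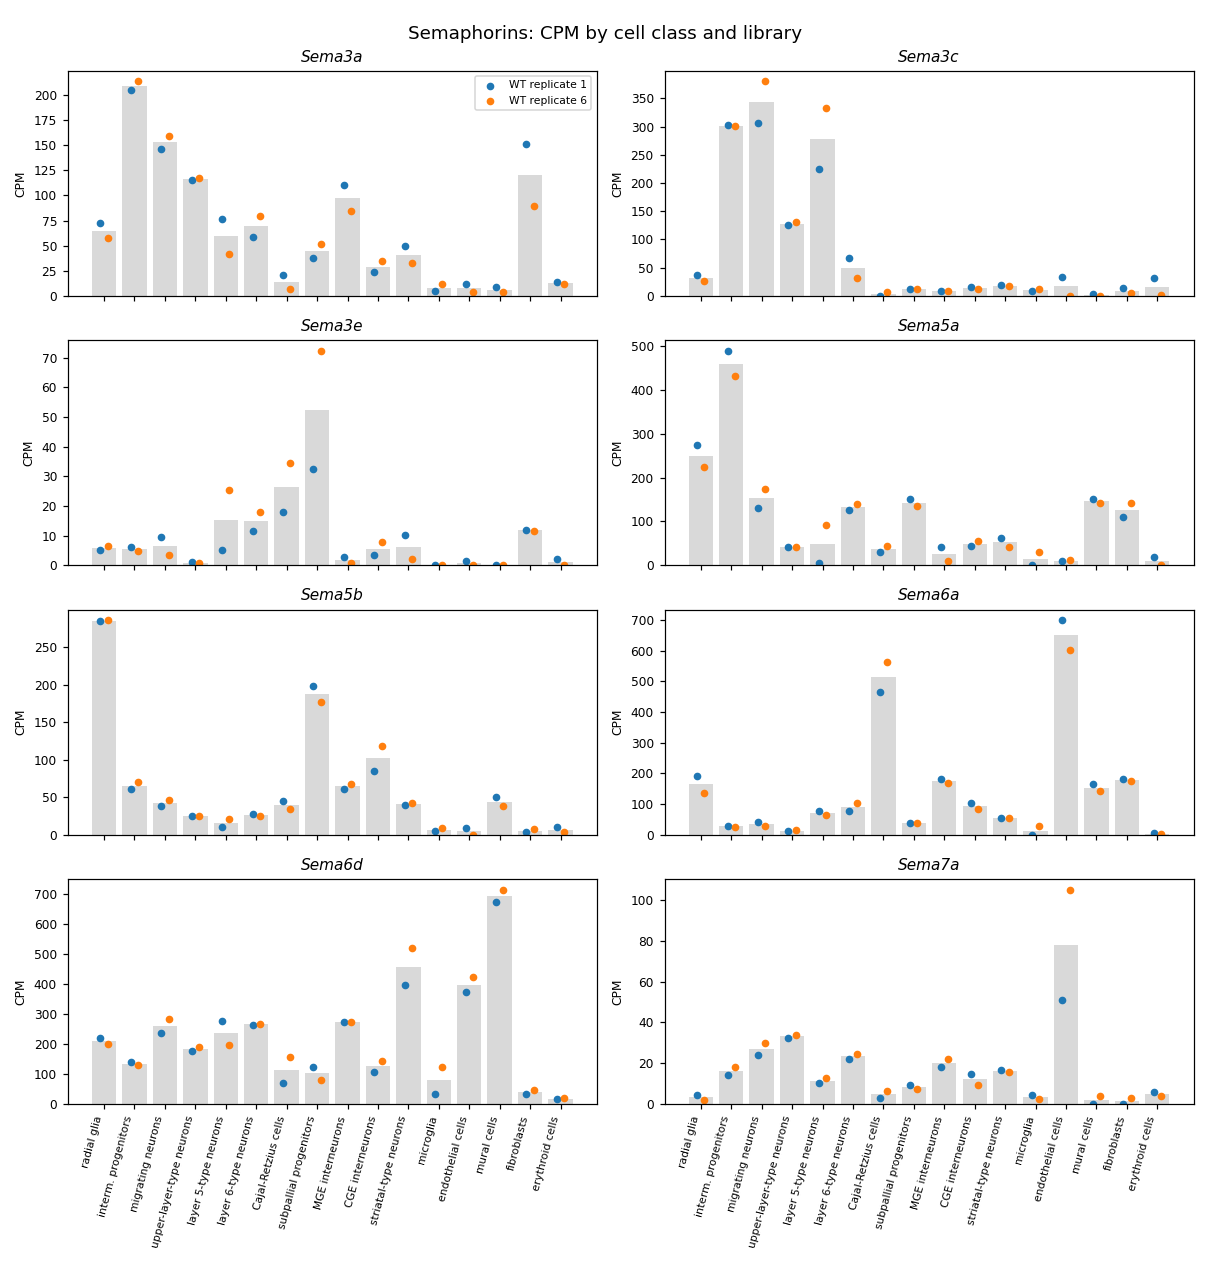
Levels of 8 semaphorins (CPM, y axis from 0) in 16 cell classes (x axis). Bars are the mean of 2 libraries and points the single libraries. Sema3a and Sema5a stand out in intermediate progenitors, Sema3c in migrating neurons and intermediate progenitors, and Sema5b in radial glia. Sema6a stands out in endothelial and Cajal-Retzius cells, and Sema6d in mural cells.

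To ask how these genes differ between related classes, UMIs were summed per library and class and compared with edgeR's quasi-likelihood test, with Benjamini-Hochberg adjustment over all genes tested and an adjusted p under 0.05 as the threshold. Each comparison holds 2 sums against 2, and whether a library is 1 embryo is not stated, so p-values measure the spread between these libraries. A log2 difference is the first class minus the second. In bulk sums, fewer cells that express a gene and less RNA per cell cannot be told apart. The share of all tested genes past the threshold is given as the background, because these classes differ in many genes. Comparisons that share a class share its cells.

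Between radial glia, the progenitors of the ventricular zone, and intermediate progenitors, the basal progenitors derived from them, both neuropilins and the type A plexins Plxna4, Plxna2 and Plxna3 were lower in radial glia. Of 24 members tested, 13 were lower and 6 higher in radial glia, while 52.2% of all 11983 genes tested differed, 27% higher and 25.3% lower. The median log2 difference was -1.11 over the members tested and -0.01 over all genes. Without TMM scaling the median of all genes moved to 0.10. The intermediate progenitor gate required Eomes but no cycling marker, and it set no limit on Neurod1, Neurod2 or Neurod6. Young neurons that still hold Eomes RNA can therefore be in this class. The neuronal transcript Stmn2 stood at 115 and 150 CPM in radial glia and 299 and 384 CPM in intermediate progenitors. The effect on the comparisons of this class was not tested.

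Plxna4 stood at 27.6 and 27.6 CPM in radial glia against 1015 and 999 CPM in intermediate progenitors (log2 -5.30 ± 0.14 SE, edgeR adjusted p = 5.65e-10). Nrp1 had 19.2 and 13.4 CPM against 202 and 233 CPM (log2 -3.85 ± 0.16 SE, edgeR adjusted p = 5.21e-09). For Nrp2 the values were 10.5 and 5.17 CPM and 106 and 96.1 CPM (log2 -3.80 ± 0.22 SE, edgeR adjusted p = 6.18e-08). The secreted ligand Sema3c moved with these receptors, from 37.6 and 26.7 CPM to 302 and 301 CPM (log2 -3.34 ± 0.14 SE, edgeR adjusted p = 5.6e-09). The other members lower in radial glia were Sema6c, Plxna2, Sema7a, Sema4c, Sema4f, Sema4g, Sema3a, Plxna3 and Sema5a, with log2 differences from -2.86 to -1. Plxna1 had 10.9 and 9.92 CPM against 10.7 and 6.87 CPM and was not called, and Plxnd1 did not pass the filter on low counts. Sema4f missed the threshold in DESeq2 (adjusted p = 0.0771).

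Higher in radial glia were Plxnc1, Sema6a, Sema5b, Sema4a, Sema6d and Plxnb1. Plxnc1 had 109 and 97.9 CPM against 10.7 and 12.1 CPM (log2 3.06 ± 0.16 SE, edgeR adjusted p = 2.85e-08). Sema6a stood at 192 and 137 CPM against 28.9 and 26.5 CPM (log2 2.46 ± 0.18 SE, edgeR adjusted p = 3.69e-07). Sema5b was even between libraries, with 285 and 285 CPM against 60.3 and 70.3 CPM (log2 2.01 ± 0.11 SE, edgeR adjusted p = 3.32e-08). The Sema4a values were 55.1 and 5.17 CPM against 2.22 and 2.29 CPM (log2 3.60 ± 0.92 SE, edgeR adjusted p = 0.00628), and 1 cell decided their size. Without the richest cell of each library the Sema4a difference was 1.59 (adjusted p = 0.0185, edgeR), and in WT replicate 6 alone 1.01. Plxnb1 was just past the threshold (adjusted p = 0.049, edgeR) and missed it without its richest cells (adjusted p = 0.0537, edgeR) and in DESeq2 (adjusted p = 0.236).

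Promoter windows of RefSeq (GRCm38.p6, 250 bases before to 50 after a start) were available for 26 of the 31 members. The bases upstream of Nrp2, Sema3c and Sema5a are shown as examples of members that were lower in radial glia than in intermediate progenitors. They were picked among members whose gene starts where its window says, and the choice is no ranking. Plxna4 and Nrp1 had no such window, and Sema6c had one but is not shown. Nrp2 (gene chr1:62703317-62818692, plus strand) has its upstream bases at chr1:62703067-62703316, Sema3c (gene chr5:17574816-17730268, plus strand) at chr5:17574566-17574815, and Sema5a (gene chr15:32244813-32696341, plus strand) at chr15:32244563-32244812. They lie directly before the annotated start of each gene, and capitals mark the E-box letters CAGATG on either strand, a form that proneural factors of the Neurog and Neurod families can bind.
Nrp2: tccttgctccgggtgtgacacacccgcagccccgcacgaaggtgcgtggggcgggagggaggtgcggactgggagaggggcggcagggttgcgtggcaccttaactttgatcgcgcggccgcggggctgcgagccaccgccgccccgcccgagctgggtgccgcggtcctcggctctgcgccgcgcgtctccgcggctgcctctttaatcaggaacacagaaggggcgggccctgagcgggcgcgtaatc
Sema3c: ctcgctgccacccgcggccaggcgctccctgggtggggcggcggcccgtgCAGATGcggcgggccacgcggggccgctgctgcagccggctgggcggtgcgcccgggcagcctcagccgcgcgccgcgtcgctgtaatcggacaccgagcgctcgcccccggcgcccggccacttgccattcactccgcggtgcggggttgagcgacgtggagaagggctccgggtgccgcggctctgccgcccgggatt
Sema5a: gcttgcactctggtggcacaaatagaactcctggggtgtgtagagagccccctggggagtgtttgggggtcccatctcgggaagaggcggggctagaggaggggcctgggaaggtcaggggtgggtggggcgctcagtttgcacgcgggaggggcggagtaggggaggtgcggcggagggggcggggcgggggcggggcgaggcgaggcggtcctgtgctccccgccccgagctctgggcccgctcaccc

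The upstream bases held 72.4%, 78.4% and 72% G and C, and the median over the members' whole windows was 63.7% against 52.7% over all windows. Of the 37 member windows, 2 held CAGATG or its reverse CATCTG (5.41%), in Sema3c and Sema4a, against 17.2% of 32851 windows of the same length. CAGCTG was in 6 member windows (16.2% against 16.3%), of Plxnb3, Sema3g, Sema4d, Sema4g, Sema6c and Sema7a. CACGTG was in 3 (8.11% against 7.15%), of Sema3e, Sema4b and Sema6d. CAGCTG and CACGTG read the same on both strands, and the motifs do not overlap each other in letters.

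On the step from intermediate progenitors to migrating excitatory neurons, which are postmitotic, 6 receptors (Nrp1, Nrp2, Plxna1, Plxna2, Plxna4 and Plxnc1) and 5 semaphorins rose and 3 semaphorins fell. Of 25 members tested, 3 were higher and 11 lower in intermediate progenitors, against 29.5% of 11873 genes called, 13.8% higher and 15.7% lower. Nrp1 went from 202 and 233 CPM to 777 and 805 CPM (log2 -1.92 ± 0.10 SE, edgeR adjusted p = 9.49e-07). Sema4d, a ligand of Plxnb1, followed with 14.1 and 15.7 CPM against 51.5 and 52.3 CPM (log2 -1.85 ± 0.15 SE, edgeR adjusted p = 1.16e-05). The low-level genes Sema6b and Sema3f also passed the test. Sema6b had 2.96 and 1.96 CPM against 7.58 and 7.38 CPM (log2 -1.66 ± 0.39 SE, edgeR adjusted p = 0.00824). Sema3f had 1.85 and 2.62 CPM against 5.3 and 7.09 CPM (log2 -1.49 ± 0.42 SE, edgeR adjusted p = 0.0212). The other genes that were higher in migrating neurons were Nrp2, Sema6d, Plxna1, Sema7a, Plxnc1, Plxna4 and Plxna2, by 0.48 to 1.02 on the log2 scale.

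Sema5a, Sema5b and Sema3a were the members that fell. Sema5a went from 489 and 431 CPM in intermediate progenitors to 131 and 175 CPM in migrating neurons (log2 1.54 ± 0.13 SE, edgeR adjusted p = 1.58e-05). The drop of Sema5b was smaller, from 60.3 and 70.3 CPM to 38.4 and 45.8 CPM (log2 0.58 ± 0.14 SE, edgeR adjusted p = 0.00812). For Sema3a it was from 205 and 214 CPM to 147 and 159 CPM (log2 0.40 ± 0.08 SE, edgeR adjusted p = 0.0045). Sema3c stood at 302 and 301 CPM and 307 and 379.8 CPM and missed the threshold (adjusted p = 0.131, edgeR), but passed it when libraries were treated as replicate blocks (edgeR adjusted p = 0.0124), as did Sema4f and Sema4g. DESeq2 called 7 of the 14 members, with Plxna1, Plxnc1, Sema3a, Sema3f, Sema5b, Sema6b and Sema7a not called (adjusted p from 0.0545 to 0.316), and a fit of all classes together 9.

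Upper-layer-type neurons, which are born later, were compared with the sum of layer 5-type and layer 6-type neurons. Of 27 members tested, 4 were higher and 5 lower in upper-layer-type neurons, against 12.9% of 11870 genes called, 4.55% higher and 8.37% lower. Plxna4 was the leading receptor of upper-layer-type neurons, with 1604 and 1695 CPM against 490.04 and 390.04 CPM (log2 1.93 ± 0.12 SE, edgeR adjusted p = 1.89e-06). Nrp1 had 629 and 669 CPM against 371 and 454 CPM (log2 0.67 ± 0.12 SE, edgeR adjusted p = 0.00402), although the deep-layer sum mixes layer 5-type neurons, in which it was higher than in upper-layer-type neurons, with layer 6-type neurons, in which it was lower. The ligands Sema6c and Sema3a were higher as well. Sema6c had 32.8 and 34.9 CPM against 20.4 and 15.6 CPM (log2 0.94 ± 0.23 SE, edgeR adjusted p = 0.0198). Sema3a had 115 and 117 CPM against 62.4 and 70.5 CPM (log2 0.82 ± 0.13 SE, edgeR adjusted p = 0.00169).

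Deep-layer-type neurons had more Sema3e, Nrp2, Sema6a, Sema5a and Sema6d. Sema3e, a ligand known from corticofugal and thalamic pathways, had 1.17 and 0.664 CPM in upper-layer-type against 10.2 and 19.7 CPM in deep-layer-type neurons (log2 -4 ± 0.54 SE, edgeR adjusted p = 0.000522). Its log2 difference within each library was -2.94 and -4.59, both towards deep-layer-type neurons, and over both libraries upper-layer-type neurons held 10 and deep-layer-type neurons 28 UMIs. Nrp2 stood at 29.1 and 21.4 CPM against 229 and 289 CPM (log2 -3.35 ± 0.17 SE, edgeR adjusted p = 4.81e-07). Sema6a had 12.5 and 14.6 CPM against 77.1 and 94.4 CPM (log2 -2.64 ± 0.18 SE, edgeR adjusted p = 3.12e-06), and Sema5a had 41 and 40.9 CPM against 99.8 and 129 CPM (log2 -1.47 ± 0.14 SE, edgeR adjusted p = 5.13e-05). With the library as a replicate block 14 members were called instead of 9, adding Plxna1, Plxna2, Plxnc1, Plxnd1 and Sema7a. Sema6c and Sema6d missed the threshold in DESeq2 (adjusted p = 0.176 and 0.0799).

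MGE interneurons, which enter the cortex tangentially and include the somatostatin lineage, differed from the layer-type excitatory neurons (the sum of the upper-layer-, layer 5- and layer 6-type classes) in both ligands and receptors. Of 26 members tested, 7 were higher and 6 lower in MGE interneurons, against 27.6% of 12341 genes called, 13.9% higher and 13.7% lower. Upper-layer-type neurons gave 5116016 of the 5997579 and 6021508 of the 6985503 UMIs of the excitatory sum, so they weigh most in it. Sema3c was lower, with 8.26 and 8.03 CPM against 122 and 127 CPM (log2 -3.97 ± 0.18 SE, edgeR adjusted p = 1.43e-07). Nrp1 had 64.2 and 66 CPM against 591 and 639 CPM (log2 -3.28 ± 0.13 SE, edgeR adjusted p = 4.91e-08). Sema4d had 4.59 and 8.92 CPM against 46.4 and 52.1 CPM (log2 -2.89 ± 0.27 SE, edgeR adjusted p = 2.73e-05). A smaller gap was found for Plxna4, at 498 and 562 CPM against 1440.1 and 1515 CPM (log2 -1.52 ± 0.11 SE, edgeR adjusted p = 3.75e-06). This gap rests on the upper-layer-type neurons. The mean Plxna4 level of MGE interneurons was above those of layer 5-type and layer 6-type neurons. Plxnb2 and Sema7a were lower too, by 0.73 and 0.66 on the log2 scale, although their mean levels in layer 5-type neurons were below those in MGE interneurons.

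Sema6a led the members that were higher in MGE interneurons, with 182 and 169 CPM against 22 and 25.6 CPM (log2 2.84 ± 0.12 SE, edgeR adjusted p = 9.14e-08). Plxnc1 had 65.1 and 50.8 CPM against 16.7 and 11.3 CPM (log2 2.02 ± 0.23 SE, edgeR adjusted p = 0.000137). The progenitor ligand Sema5b was also higher, at 61.5 and 67.8 CPM against 24.8 and 24.5 CPM (log2 1.35 ± 0.15 SE, edgeR adjusted p = 8.07e-05). Plxnb1 had 34 and 29.4 CPM against 15.3 and 15.2 CPM (log2 1.01 ± 0.20 SE, edgeR adjusted p = 0.00428). Nrp2, Sema6c and Sema6d passed the test with log2 differences of 0.45 to 0.60, and Nrp2 missed it without its richest cells (adjusted p = 0.0669, edgeR). The Nrp2 difference holds for the sum only. Its mean levels in layer 5-type (522 CPM) and layer 6-type neurons (180 CPM) were above that in MGE interneurons. In DESeq2, Plxnb2, Sema7a, Sema6c and Nrp2 missed the threshold (adjusted p from 0.127 to 0.232). Plxna2 stood at 555 and 433 CPM and 554 and 613 CPM and overlapped between the classes.

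MGE and CGE interneurons are both inhibitory but come from different eminences. Of 21 members tested, 3 were higher and 0 lower in MGE interneurons (14.3% called). Of all 9130 genes tested, 7% were called, 3.95% higher and 3.04% lower. Sema3a had 110.1 and 84.7 CPM in MGE against 23.3 and 34.2 CPM in CGE interneurons (log2 1.75 ± 0.26 SE, edgeR adjusted p = 0.00153). Sema6d had 272 and 273 CPM against 108 and 145 CPM (log2 1.10 ± 0.17 SE, edgeR adjusted p = 0.00179), and Sema6a had 182 and 169 CPM against 103 and 84 CPM (log2 0.91 ± 0.17 SE, edgeR adjusted p = 0.00755). Every one of these ligands was higher in MGE interneurons in both libraries. With the library as a replicate block, Nrp2 (higher in MGE) and Sema5b (lower) were also called, which gave 5 members. Sema6a missed the threshold in DESeq2 (adjusted p = 0.107).

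Striatal-type neurons are inhibitory neurons of the subpallium that do not enter the cortex. Against them, 5 of 24 members tested were higher and 2 lower in MGE interneurons, while 13.1% of 9643 genes were called, 7.23% higher and 5.86% lower. Sema6a had 182 and 169 CPM against 53.9 and 53.2 CPM (log2 1.73 ± 0.16 SE, edgeR adjusted p = 6.19e-06). Sema3a had 110.1 and 84.7 CPM against 49.3 and 32.3 CPM (log2 1.26 ± 0.22 SE, edgeR adjusted p = 0.00182). Sema6c, highest of all classes in MGE interneurons, had 44 and 54.4 CPM against 20.5 and 21.9 CPM (log2 1.24 ± 0.26 SE, edgeR adjusted p = 0.0055). Sema5b had 61.5 and 67.8 CPM against 39.98 and 41.7 CPM (log2 0.69 ± 0.19 SE, edgeR adjusted p = 0.0356), and Plxna4 was higher by 0.54 on the log2 scale. Striatal-type neurons instead had more Plxnc1 and Sema6d. Plxnc1 had 65.1 and 50.8 CPM against 121 and 101 CPM (log2 -0.92 ± 0.18 SE, edgeR adjusted p = 0.00403), and Sema6d 272 and 273 CPM against 395 and 518 CPM (log2 -0.72 ± 0.15 SE, edgeR adjusted p = 0.00723). Nrp1 was similar in level (64.2 and 66 CPM against 72.5 and 83.4 CPM) and was not called (log2 difference -0.23 ± 0.17). The count of called members depended on the method, with 3 members called by DESeq2, 4 with stricter cell limits and 12 without a filter on low counts. Plxna4, Plxnc1, Sema5b and Sema6c missed the threshold in DESeq2 (adjusted p from 0.08 to 0.539).

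Cajal-Retzius cells were set against the deep-layer-type neurons. Of 22 members tested, 2 were higher and 11 lower in Cajal-Retzius cells, against 23% of 8813 genes called, 11.4% higher and 11.6% lower. The median log2 difference was -0.87 over the members tested and -0.01 over all genes, or 0.11 over all genes without TMM scaling. Plxna2 had 24 and 28.1 CPM against 617 and 775 CPM (log2 -4.83 ± 0.29 SE, edgeR adjusted p = 1.07e-09). Sema3c had only 3 UMIs in Cajal-Retzius cells, all in WT replicate 6, so that its level in deep-layer-type neurons was 27.6 times as high with a counting interval of 9.31 to 135 (log2 -4.84 ± 0.49 SE, edgeR adjusted p = 6.6e-07). Nrp1 had 12 and 36.8 CPM against 371 and 454 CPM (log2 -4.09 ± 0.32 SE, edgeR adjusted p = 2.05e-08), and 12 of its 17 UMIs in WT replicate 6 lay in 1 cell. Sema3a had 21 and 6.49 CPM against 62.4 and 70.5 CPM (log2 -2.49 ± 0.42 SE, edgeR adjusted p = 0.000188).

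Within each library, Nrp1 had log2 differences of -4.98 and -3.71 and Sema3a of -1.65 and -3.40, both lower in Cajal-Retzius cells but uneven in size. Nrp2, Sema7a, Plxna1, Sema5a, Sema6d, Sema4d and Plxna4 were lower too, by 0.95 to 2.32 on the log2 scale, but DESeq2 did not call Nrp2, Plxna1, Sema4d and Sema7a (adjusted p from 0.245 to 0.345). The members higher in Cajal-Retzius cells were Plxnd1 and Sema6a. Plxnd1 had 68.9 and 73.5 CPM against 4.54 and 13.5 CPM (log2 2.82 ± 0.41 SE, edgeR adjusted p = 3.83e-05), with 3.61 and 2.27 within each library. Sema6a had 467 and 562 CPM against 77.1 and 94.4 CPM (log2 2.47 ± 0.22 SE, edgeR adjusted p = 1.1e-07).

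Endothelial and mural cells, the inner lining and the outer cells of vessels, held different ligands and receptors. Of 15 members tested, 7 were higher and 7 lower in endothelial cells, against 29.5% of 8229 genes called, 15.1% higher and 14.3% lower. The other 16 members did not pass the filter on low counts, so the count does not speak for the family. Sema3g had 24.1 and 27.6 CPM in endothelial cells and 0 UMIs in mural cells, at least 9.33-fold higher against a floor of 3 counts over both mural sums (adjusted p = 0.000847, edgeR). Sema7a had 50.8 and 105 CPM against 0 and 3.97 CPM, with 2 UMIs in mural cells, a ratio of 40.3 with a counting interval of 10.9 to 338 (log2 5.22 ± 0.75 SE, edgeR adjusted p = 0.000447).

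Nrp2 was an endothelial gene within this pair, at 126 and 99.4 CPM against 13.5 and 13.9 CPM (log2 3.03 ± 0.32 SE, edgeR adjusted p = 5.36e-05). Plxnd1, Plxna2 and Sema6a were also higher in endothelial cells, with log2 differences of 2.57, 2.52 and 2.08. Plxna4 had 131 and 36.8 CPM against 22 and 3.97 CPM (log2 2.66 ± 0.70 SE, edgeR adjusted p = 0.0161), but 34 of its 98 UMIs in WT replicate 1 came from 1 cell, and erythroid cells held 78.2 and 152 CPM. With likely doublets kept the Plxna4 difference was -0.035, and it was not called with stricter cell limits (adjusted p = 0.085, edgeR) or by DESeq2 (adjusted p = 0.17). Nrp1 had 431 and 348 CPM against 279 and 269.99 CPM and passed the threshold only when libraries were treated as replicate blocks (edgeR adjusted p = 0.0678 without the block and 0.0252 with it).

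Mural cells had more Sema5a, Sema5b, Plxnb2, Sema4c, Sema4d, Plxnb1 and Sema6d. Sema5a had 9.36 and 11 CPM in endothelial against 152 and 141 CPM in mural cells (log2 -3.84 ± 0.29 SE, edgeR adjusted p = 5.7e-06). Sema5b had 9.36 and 0 CPM against 50.7 and 37.7 CPM (log2 -3.01 ± 0.64 SE, edgeR adjusted p = 0.00522). It had 0 UMIs in the endothelial cells of WT replicate 6, and it was no longer called with likely doublets kept (-1.12, adjusted p = 0.105, edgeR). Sema4d and Plxnb1 were not called by DESeq2 (adjusted p = 0.0966 and 0.248). The receptor Plxnb2 and its ligand Sema4c moved in the same direction. Plxnb2 had 18.7 and 12.9 CPM against 89.5 and 99.3 CPM (log2 -2.53 ± 0.31 SE, edgeR adjusted p = 0.000161), and Sema4c had 24.1 and 16.6 CPM against 76 and 93.3 CPM (log2 -2.01 ± 0.32 SE, edgeR adjusted p = 0.000783).

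**Figure D4:**
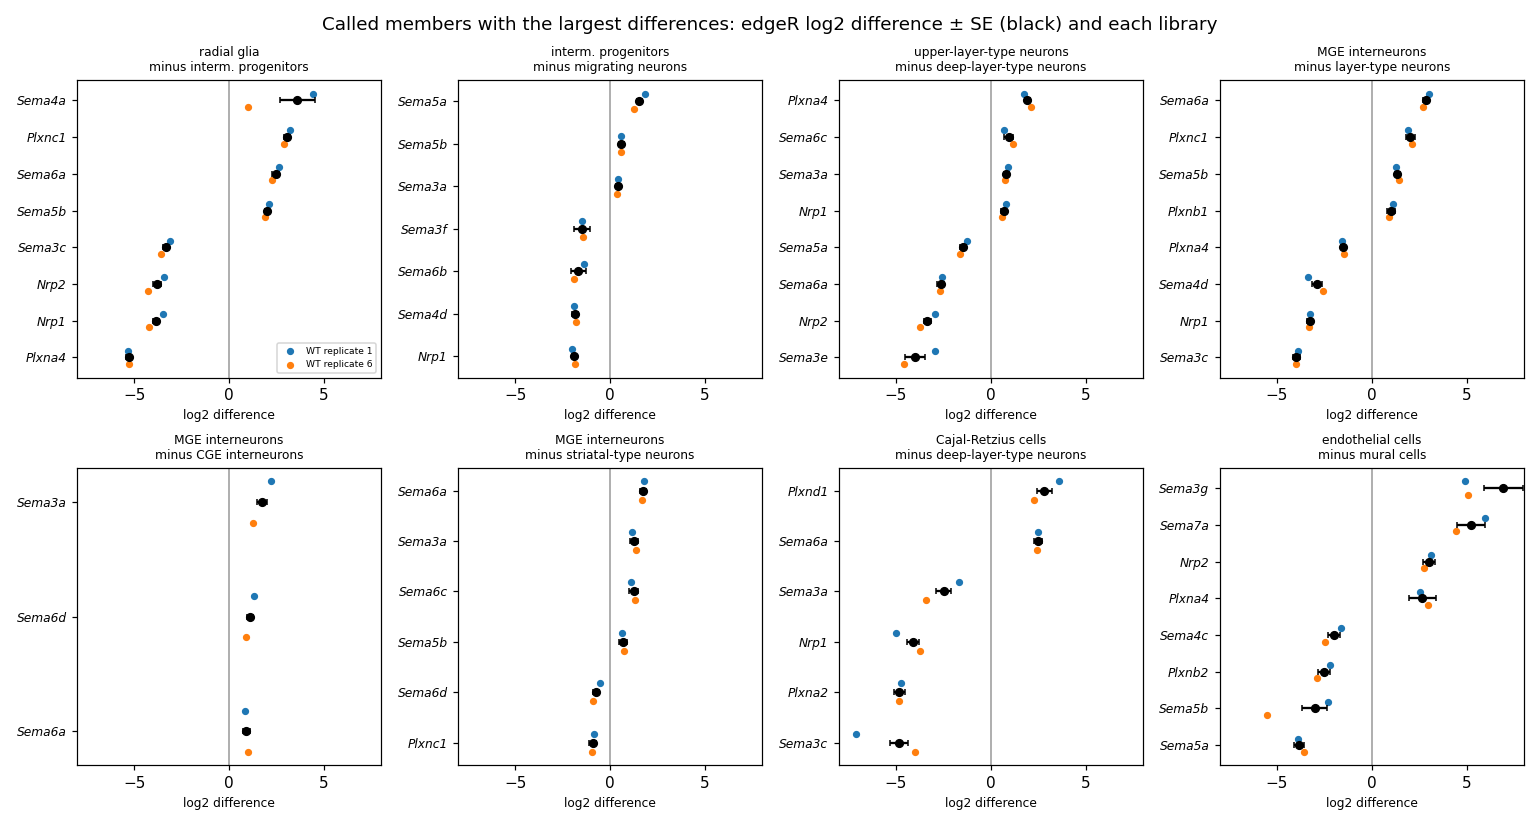
Log2 differences (x axis, first class minus second class) of the named members in the 8 comparisons, 1 panel each. Black points with bars are edgeR estimates ± SE, and blue and orange points are WT replicate 1 and WT replicate 6. Most library points lie close to the estimate, while Sema4a in radial glia and Sema5b in endothelial cells are spread widely. Sema3g had 0 UMIs in mural cells, so its fitted value is no bound, and the same holds for a library point whose class had 0 UMIs (Sema3c in Cajal-Retzius cells, Sema5b in endothelial cells and Sema7a in mural cells).

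Known ligands and receptors were next set side by side by level only. Sema3a peaked in intermediate progenitors, which held 202 and 233 CPM of its co-receptor Nrp1 and 1015 and 999 CPM of Plxna4. Sema3c peaked in migrating neurons, which held 777 and 805 CPM of Nrp1 and 189 and 206 CPM of Nrp2 but 4.04 and 2.36 CPM of Plxnd1. For both ligands, the class with the highest level thus also carried neuropilin transcripts. It was not the highest class of the receptors. Nrp1 and Nrp2 were highest in layer 5-type neurons, Plxna4 in upper-layer-type neurons and Plxnd1 in endothelial cells.

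For the other pairs, too, the highest classes of ligand and receptor differed. Sema3e was highest in subpallial progenitors, where Plxnd1 stood at 0.613 and 1.26 CPM, and endothelial cells, with the most Plxnd1, had 1.34 and 0 CPM of Sema3e. Cajal-Retzius cells came second for both genes, with 18 and 34.6 CPM of Sema3e and 68.9 and 73.5 CPM of Plxnd1. Sema7a was highest in endothelial cells, where its receptor Plxnc1 had 9.36 and 1.84 CPM, while striatal-type neurons and radial glia, with the most Plxnc1, had 16.7 and 15.6 CPM and 4.37 and 2.16 CPM of Sema7a. Sema6a was highest in endothelial cells, with 159 and 123 CPM of Plxna2, and in Cajal-Retzius cells, which had 246 and 247 CPM of Plxna4.

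Sema4d had its highest mean in migrating neurons, at 14.4 and 18.3 CPM of Plxnb1, and radial glia, with the highest mean of Plxnb1, had 18.4 and 18.1 CPM of Sema4d. Sema5a peaked in intermediate progenitors, with 10.7 and 6.87 CPM of Plxna1 and 28.5 and 19.9 CPM of Plxna3, and Sema5b in radial glia, with 10.9 and 9.92 CPM and 13.1 and 9.05 CPM. Sema3f peaked in striatal-type neurons, which held 19.5 and 19.8 CPM of Plxna3. Sema6d peaked in mural cells, which held 13.5 and 5.96 CPM of Plxna1 and 22 and 3.97 CPM of Plxna4. No score was formed from these levels.

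Transcripts of 2 members within the same cell were counted next, and no pair went the same way in every class and library. After thinning, 26.9% and 24.2% of upper-layer-type neurons with a Nrp1 UMI also had a Sema3c UMI, against 8.30% and 9.55% of those without. Of the layer 5-type neurons with a Nrp1 UMI, 50% and 58.8% had a Nrp2 UMI, against 11.1% and 18.2% of the others, over 27 and 28 cells. Fewer than 10 of these cells lacked a Nrp1 UMI in WT replicate 1, so layer 5-type neurons are not among the 7 classes counted below. Among upper-layer-type neurons, by contrast, 2.52% and 3.13% of cells with a Nrp1 UMI had a Nrp2 UMI against 3.02% and 1.27% of the others, and a Plxna4 UMI was rarer with Nrp1 (85.2% and 87.9%) than without (90.6% and 93.9%). Of the 7 classes with at least 10 cells with and 10 without a Nrp1 UMI in each library, the share with Sema3c was higher beside Nrp1 in both libraries in 3 and lower in 0, that with Nrp2 higher in 2 and lower in 1, and that with Plxna4 higher in 2 and lower in 2. By the same limit, the share with Plxna4 was higher beside Plxna2 in both libraries in 6 of 11 classes and lower in 1. The share with Plxna3 was higher beside Nrp2 in 0 of 6 classes and lower in 1. These shares are descriptions, since cells of 1 library share their source and undetected transcripts are frequent at this depth.

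MGE interneurons with and without an Sst UMI were described without a test, because Sst, the somatostatin gene, was used in the gate. Of 23 members with at least 20 UMIs, 4 were higher in the cells with Sst with no overlap between the libraries of the 2 kinds of cell, 5 were lower and 14 overlapped. Over all 9526 genes with as many UMIs, 40.0% did not overlap (21.7% higher and 18.3% lower), so the members' count lay near the background. Plxna4 stood at 239 and 269 CPM with Sst and 635 and 675 CPM without. Sema6d showed the opposite order, at 358 and 445 CPM with Sst and 226 and 206 CPM without. Nrp2, Plxna1 and Sema3a were the other higher members, and Plxna3, Plxnb1, Sema5b and Sema7a the other lower ones. Some of these separations were very small. Plxna3 had 15.9 and 25.6 CPM with Sst and 26.6 and 25.96 CPM without, and Nrp2 had 117 and 125 CPM with Sst and 112 and 47 CPM without.

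The pathway partners of the family, 42 co-receptors, extracellular partners and intracellular effectors, were counted in the same fits. From radial glia to intermediate progenitors 30 of 39 tested were called (76.9% against 52.2% of all genes, 14 higher and 16 lower in radial glia), and from intermediate progenitors to migrating neurons 20 of 38 (52.6% against 29.5%, 6 and 14). Rnd2, a small GTPase of radial migration, had 10.9 and 10.3 CPM in radial glia against 197 and 220.05 CPM in intermediate progenitors, and the axonal adhesion molecule L1cam 3.5 and 1.72 CPM against 38.8 and 49.4 CPM. The integrin subunit Itga1 had 38 UMIs in radial glia and 2 in intermediate progenitors, a ratio of 23.8 with a counting interval of 6.14 to 203. Cntn2, Mical2 and Rras led the next step, and Cntn2, an axonal adhesion molecule, had 48.1 and 58.2 CPM in intermediate progenitors against 245 and 242 CPM in migrating neurons.

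Between upper-layer-type and deep-layer-type neurons 8 of 37 partners were called (21.6% against 12.9% of all genes, 2 higher and 6 lower), led by Nrcam, Rnd3 and Dpysl4, all lower in upper-layer-type neurons. MGE interneurons differed from layer-type excitatory neurons in 17 of 37 (45.9% against 27.6%, 8 and 9), led by Cntn2, Rnd3 and Met. Rnd3, a GTPase that antagonises RhoA, had 127 and 126 CPM in MGE interneurons against 16.7 and 18.8 CPM in excitatory neurons. Against CGE interneurons 6 of 35 were called (17.1% against 7%, 4 and 2), and Mical2, an actin oxidase, had 31 UMIs in MGE and 0 in CGE interneurons, at least 5.81-fold higher against a floor of 3 counts over both CGE sums. Against striatal-type neurons 5 of 34 were called (4 and 1), near the background at 14.7% against 13.1%, and Chl1, a Nrp1-binding adhesion molecule, had 667 and 642 CPM in MGE interneurons against 136 and 132 CPM.

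Cajal-Retzius cells differed from deep-layer-type neurons in 9 of 33 partners (27.3% against 23% of all genes, near the background, 2 higher and 7 lower), led by Nrcam with 65.9 and 75.7 CPM against 400.4 and 507 CPM. Endothelial and mural cells differed in 14 of 30 (46.7% against 29.5%, 7 and 7). Kdr, the VEGF receptor that pairs with Nrp1 in endothelium, had 857 and 1069.6 CPM in endothelial against 13.5 and 11.9 CPM in mural cells, and Rnd3 the opposite order with 8.02 and 12.9 CPM against 172 and 197 CPM.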

How the data were processed

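Gene-by-cell matrices of 2 WT libraries were used. The authors used Cell Ranger 7.0.0, and the deposited files hold unnormalized UMI counts. The submitters' processing notes name the mm10 build. Whether intronic reads were counted is not given in the sources used here. The members and lists were chosen with earlier results of these data known.

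Doublets were scored against simulated pairs (2 per cell, 2000 variable genes, 30 principal components), and a rate of 0.8% per 1000 barcodes was left out (920 and 857 cells). Cells were gated on raw UMIs of 18 marker panels, each gate requiring 2 to 6 markers, and a cell that passed no gate (4490 and 4322) or several (78 and 62) was left out. Counts were summed per library and class and compared with edgeR 4.0.16 in R 4.3.3 (glmQLFit and glmQLFTest, TMM, filterByExpr, two-sided), each fit holding the compared classes alone. The test was tested on simulated data. Other work was done in Python 3.11.15 with numpy 2.4.6, pandas 2.3.3, scipy 1.17.1, scikit-learn 1.9.0 and statsmodels 0.14.6.

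Full statistics are given for up to 4 called members with the largest positive and up to 4 with the largest negative log2 difference per comparison, with at least 20 UMIs in the higher class. Up to 3 called partners per comparison are named by size, and other members named with a value were chosen after their values were seen. Each library gave 1 sum to either class, so the library pairs the sums. The deviations of the paired sums from their class means had Pearson r over genes of 0.30, 0.33, 0.25, 0.30, 0.14, 0.17, 0.048 and 0.097, in the order in which the text gives its 8 comparisons. Alternatives were DESeq2 1.42.0, no TMM, no filter on low counts, the library as a replicate block, all classes in 1 fit, doublets kept, stricter cell limits (3000 to 30000 UMIs, less than 5% mitochondrial), 1 more marker per gate, and leaving out each replicate. Leaving out the richest cell of each member was chosen after seeing the data.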

Additional observations from a re-analysis of the deposited data

Results flagged for a closer look

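Oligodendrocyte precursor cells entered no comparison, because the gate held 22 and 6 cells in the libraries, and 6 members were found in them above the level a count of 3 allows. The mean level was 623 CPM for Sema6d, 187 CPM for Plxna2, 147 CPM for Sema6a, 92.4 CPM for Sema5b, 52.6 CPM for Plxna4 and 42.4 CPM for Plxnb2. Plxna4 lay below its levels in erythroid cells (78.2 and 152 CPM), while the erythroid levels of Sema6d (17.6 and 18.9 CPM) and Sema6a (5.87 and 1.35 CPM) were far lower than in these cells. Globin RNA lowers the erythroid levels of all such genes. No difference was tested.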

How the results depend on the processing

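Of 484 refits of 54 named differences of 23 members, 465 kept the direction and the call, 18 kept the direction and missed the threshold, and 1 reversed, namely Plxna4 between endothelial and mural cells at -0.035 with likely doublets kept. In all, 41 of the 54 stayed called in the same direction in every refit. Member counts stayed within 1.5 times the reported count in 64 of 72 refits and partner counts in 59 of 64. The exceptions among members were 9 with all classes in 1 fit and 7 with DESeq2 between intermediate progenitors and migrating neurons (14 reported), 14 with the replicate block between upper-layer-type and deep-layer-type neurons (9 reported), 5 with the replicate block between MGE and CGE interneurons (3 reported), and 12 without a filter, 4 with all classes in 1 fit, 4 with stricter cell limits and 3 with DESeq2 between MGE interneurons and striatal-type neurons (7 reported). Among partners they were 11 with all classes in 1 fit between MGE interneurons and excitatory neurons (17 reported), and with DESeq2 3 between MGE and CGE interneurons (6 reported), 3 between MGE interneurons and striatal-type neurons (5 reported), 3 between Cajal-Retzius cells and deep-layer-type neurons (9 reported) and 8 between endothelial and mural cells (14 reported). The cause was not tested. Apart from the members named in the report, and Plxna2 and Sema5a between MGE interneurons and excitatory neurons and Nrp2, Sema4g and Sema5a between MGE interneurons and striatal-type neurons, which it added, the replicate block changed no member's call. Leaving out a replicate leaves 1 sum per class, hence a value without a test and no count of calls; none of 108 such values reversed, and 11 moved by more than the spread between libraries. The highest class was unchanged for 24 of 30 members with doublets kept, 26 with stricter cell limits, 24 with 1 more marker and 23 without either replicate. Depth limits the members under 100 UMIs per class, where single cells carried several values.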
